A study of Mus musculus with 26 samples.

Results

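The genes described here are 10 of the G1 checkpoint, taken from the counts by name: the D cyclins Ccnd1, Ccnd2 and Ccnd3, the E cyclins Ccne1 and Ccne2, the CDK inhibitors Cdkn1b, Cdkn2a and Cdkn2b, and the pocket protein genes Rb1 and Rbl1. They were found by symbol among the 55291 genes listed and were chosen with earlier results of these data known. All 10 passed the filter on low counts in both experiments. RNA-seq counts from 26 libraries of mouse E14 embryonic stem cells (ESCs) and of neural progenitor cells (NPCs) made from them were used, in 10 groups. The study asked how a CTCF that lacks zinc finger 1 (ΔZF1), and RNAs cut short at Podxl or Grb10, alter gene expression before and after differentiation.

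In the rescue experiment, all 4 groups carried an auxin-inducible degron (mAID-eGFP) on both endogenous Ctcf alleles, the OsTIR1 ligase at Rosa26, an Hb9 mCherry reporter and a doxycycline-inducible Flag-Halo-CTCF transgene at Tigre. All 4 were given 1 µM 5-Ph-IAA, which degrades the endogenous protein, and 1 µg/ml doxycycline, which switches on the transgene, for 24 hours. ESC-WT and NPC-WT expressed full-length CTCF and ESC-ΔZF1 and NPC-ΔZF1 the mutant, with 2 libraries in each group and 1 clone for each transgene. In the truncation experiment, parental E14 WT cells were compared with Podxl pA and Grb10 pA cells, which carry a homozygous eGFP and SV40 polyadenylation cassette after the first coding exon of Podxl or of Grb10, with 3 libraries in each of the 6 groups. ESCs were grown on gelatin with LIF, the GSK3 inhibitor CHIR99021 and the MEK inhibitor PD0325901, and NPCs for 2 days on laminin without LIF and these inhibitors, so that medium and cell state cannot be told apart.

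D cyclins bind CDK4 and CDK6 and start the phosphorylation of the Rb family, and E cyclins with CDK2 continue it, which frees E2F factors to switch on the genes of S phase. Cdkn1b (p27) blocks mainly cyclin E with CDK2, whereas Cdkn2b (p15) and the p16 product of Cdkn2a hold CDK4 and CDK6, and the other product of Cdkn2a, p19ARF, acts on p53. ESCs are often described as having a short G1, high cyclin E and largely phosphorylated Rb proteins, with a G1 that lengthens on differentiation. This description may not hold for ESCs grown with CHIR99021 and PD0325901, as here. G1 length and Rb phosphorylation were not measured in these data.

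Libraries held 6425179 to 28730435 counts on genes in the rescue experiment and 1907505 to 8845087 in the truncation experiment. The labels number the replicates but do not say that they were separate cultures, so that p-values measure only the spread between these libraries. The log2 fold change of Podxl was -2.73 in Podxl pA ESCs and -3.45 in Podxl pA NPCs, and that of Grb10 was -1.89 and -3.86 in Grb10 pA ESCs and NPCs. The Ctcf row counts the endogenous and the transgenic mRNA together and was 0.57 (ESC) and 0.78 (NPC) higher on the log2 scale in ΔZF1, which does not check the deletion. All 9 pluripotency markers fell from ESC to NPC in each of the 5 lines. Sox1, the marker of NPCs in the study, lay between 16.8 and 83.8 CPM (the count of a gene scaled to the size of its library) in the NPC libraries. In the ESC libraries it lay between 3.88 and 12.1 CPM. Of the neural progenitor markers tested, 5 of 7 were higher in NPCs in WT rescue and 6 of 7 in ΔZF1. In E14 WT, Podxl pA and Grb10 pA 5 of 6 were higher, and in Grb10 pA 1 was lower. The summed CPM of 10 extraembryonic endoderm genes was 5448 to 5596 in NPC-ΔZF1 against 789 to 1011 in NPC-WT, and in Grb10 pA NPCs 4 of 6 tested neural progenitor markers were lower than in E14 WT NPCs. The 2 NPC-WT libraries differed from each other more than other pairs in several of the 10 genes. For Ccnd3, Ccne2, Cdkn2a and Rb1, NPC-WT against ESC-WT and NPC-ΔZF1 against NPC-WT are given without each. Some other values that rest on NPC-WT, and all those of gene lists, are given only with both libraries. Leaving out 1 of 2 libraries leaves a lone library that is assumed to vary like the other groups. In bulk RNA, fewer cells of a type and less RNA per cell cannot be told apart.

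CPM normalized by TMM within each experiment were used for levels, and the 2 experiments were normalized separately and not tested against each other. Per kilobase of exon, Ccne1 was the highest of the 10 genes in all 10 groups, with group means from 55.0 to 96.2 CPM per kb. Group means of Ccnd3 were 13.9 to 36.4 CPM per kb, and Ccnd1 covered 11.9 to 27.1. Cdkn1b was 7.97 to 11.3 CPM per kb in the rescue groups and 18.8 to 29.5 in the truncation groups. Cdkn2a spanned 10.7 to 29.7. Cdkn2b, at 1.05 to 5.41 CPM per kb, and Rb1, at 1.89 to 3.87, were among the lowest 3 genes in all 10 groups. Ccnd2 had the widest span of the 10 as a ratio, from 1.12 to 15.8 CPM per kb, and was the lowest or next to lowest gene in all 5 ESC groups, and Ccne2 and Rbl1 lay between, at 4.73 to 14.9 and 3.21 to 11.1.

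**Figure D1:**
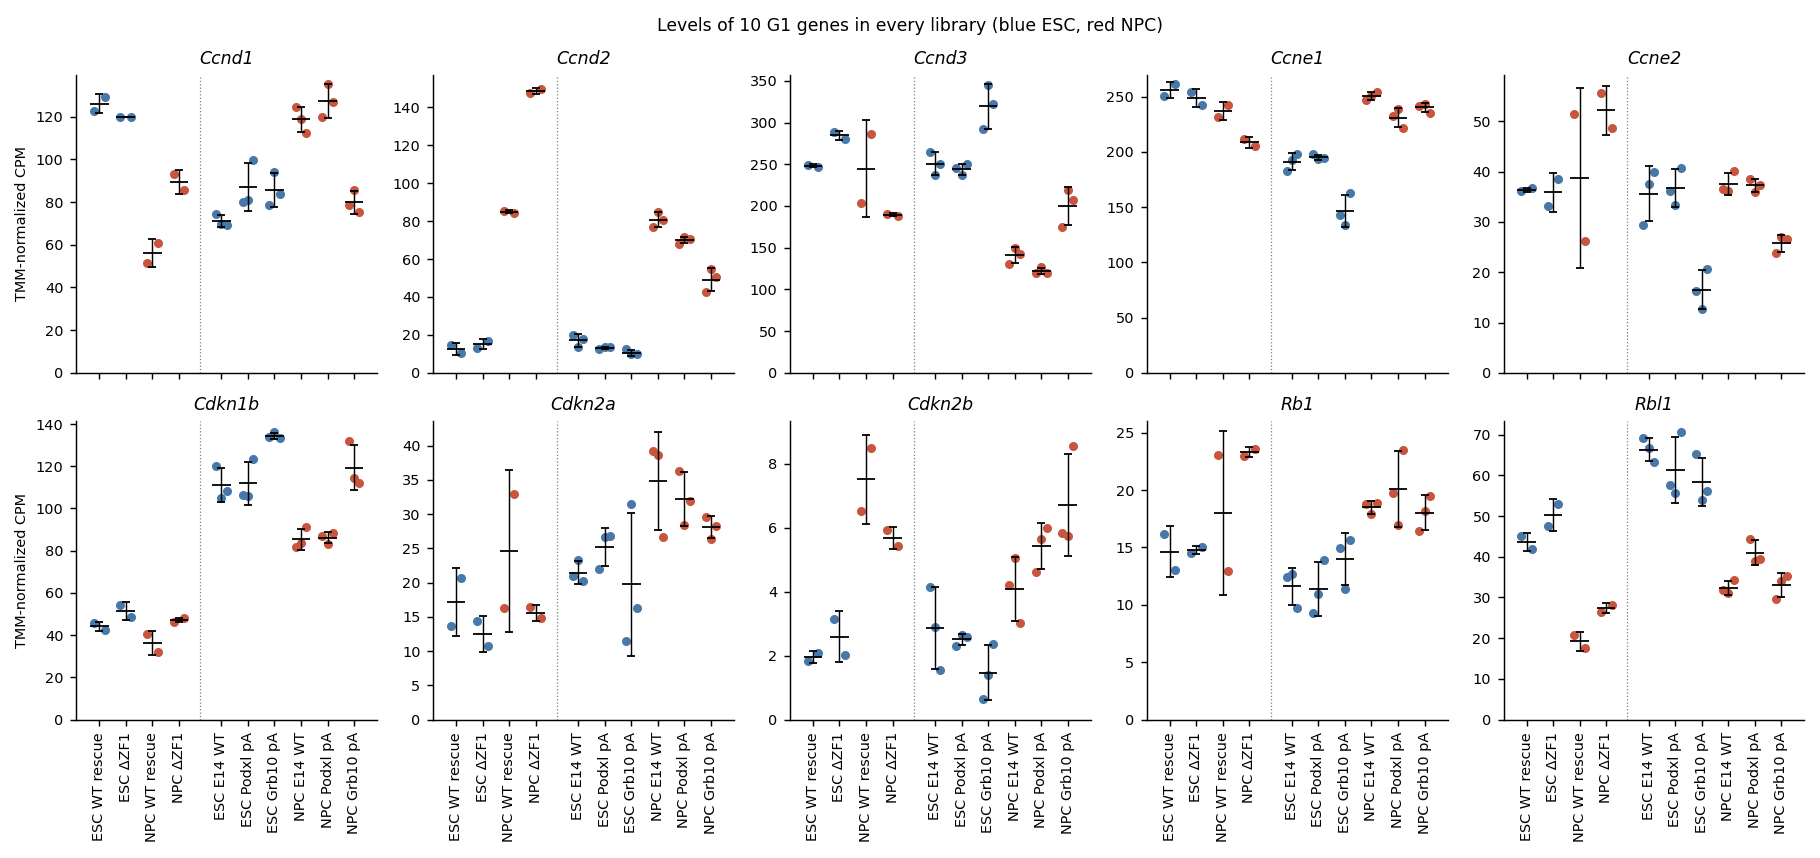
TMM-normalized CPM of the 10 genes (vertical axes, linear, from 0) in every library of the 10 groups (horizontal axes), with the mean and SD of each group in black and a dotted line between the separately normalized experiments. Ccnd2 was below 20 CPM in every ESC library and above 42 in every NPC library, and Rbl1 was lower in NPCs of every line.

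The comparison of NPCs with ESCs of the same line asks which G1 genes moved with differentiation. Genes were called at a Benjamini-Hochberg adjusted p of at most 0.05 over all genes tested, by edgeR's quasi-likelihood test, where the log2 fold change also reached 0.5 up or down. By this rule 4 of the 10 genes were called in the WT rescue line, where 41.9% of all genes were called, and 5 in the ΔZF1 line, against 37.3%. In E14 WT, 6 were called beside 32.8% of genes, in Podxl pA 6 beside 31.8%, and in Grb10 pA 7 beside 34.6%. Ccnd2 was called higher and Rbl1 lower in all 5 lines, Cdkn2b higher in 4, Ccnd3 lower in 4 and Rb1 higher in 3. Extraembryonic endoderm genes rose over the same step, 8 of 10 in WT rescue and 10 of 10 in each of the other lines, with medians from 2.04 to 4.78 on the log2 scale and, in E14 WT, summed levels of 115 to 133 CPM in ESCs and 1005 to 1314 in NPCs. Their part in the changes below was not tested.

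Ccnd2 (GRCm38 chr6:127125162-127152193, minus strand) rose from 14.8 and 10.4 CPM in ESC-WT to 85.6 and 84.6 in NPC-WT, and from 13.1 and 16.8 in ESC-ΔZF1 to 148 and 150 in NPC-ΔZF1. In the E14 WT line it was 19.8, 13.5 and 17.9 CPM in ESCs and 76.7, 84.7 and 80.6 in NPCs. No NPC library of any line overlapped the ESC libraries of that line. The fold changes were 6.96 in WT rescue (log2 fold change 2.80 ± 0.18 (SE), adjusted p = 1.65e-06) and 9.91 in ΔZF1 (3.31 ± 0.17, adjusted p = 5.67e-07). In the truncation experiment they were 4.82 in E14 WT, 5.28 in Podxl pA and 4.54 in Grb10 pA (log2 fold changes 2.27 ± 0.13, 2.40 ± 0.14 and 2.18 ± 0.14). Antisense genes on the opposite strand share 7.86% of the exon bases of Ccnd2, and counting without strand cannot tell them apart.

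Ccnd1 (chr7:144929931-144939925, minus strand) moved in opposite directions in the 2 experiments. It fell 2.26-fold in the WT rescue line, from 123 and 129 CPM in ESC-WT to 51.4 and 60.8 in NPC-WT (log2 fold change -1.17 ± 0.12, adjusted p = 2.78e-05). In E14 WT it rose 1.67-fold, from 74.6, 69.5 and 69.5 CPM in ESCs to 125, 119 and 113 in NPCs (0.74 ± 0.09, adjusted p = 2.98e-07). Libraries of the groups compared did not overlap in either line. In Podxl pA it rose 1.49-fold (0.58 ± 0.09), and in Grb10 pA the log2 fold change was -0.10 with overlapping libraries (adjusted p = 0.401). In ΔZF1 it was 120 and 120 CPM in ESCs and 93.3 and 85.5 in NPCs, a log2 fold change of -0.42 that passed the p cutoff (adjusted p = 0.0118) but not the fold cutoff. The difference between experiments was not tested. LTO1, on the opposite strand, shares 23.4% of the exon bases of Ccnd1, and counting without strand cannot tell them apart. LTO1, named after its values were seen, was 0.72 higher on the log2 scale in the same WT rescue comparison.

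Ccnd3 (chr17:47505051-47599691, plus strand) was 265, 237 and 250 CPM in E14 WT ESCs and 130, 150 and 143 in E14 WT NPCs, a 1.77-fold fall (log2 fold change -0.83 ± 0.09, adjusted p = 1.63e-08). It fell 2.00-fold in Podxl pA (-1.0 ± 0.09) and 1.60-fold in Grb10 pA (-0.67 ± 0.09). In ΔZF1 it fell from 289 and 280 CPM to 191 and 188 (-0.59 ± 0.14, adjusted p = 0.00764). The groups did not overlap in these 4 lines. Bysl, on the opposite strand and named for its overlap alone, shares 4.11% of the exon bases of Ccnd3. The ΔZF1 call was lost without NPC-ΔZF1 replicate 1 (-0.59, adjusted p = 0.0519) or replicate 2 (-0.57, adjusted p = 0.0595). In WT rescue the ESC libraries held 249 and 247 CPM and the NPC libraries 204 and 286, and the log2 fold change was -0.02 ± 0.14 (adjusted p = 0.912). It was -0.27 without NPC-WT replicate 2 (adjusted p = 0.000465) and 0.21 without replicate 1 (adjusted p = 0.00584), opposite in direction and both under the fold cutoff.

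**Figure D2:**
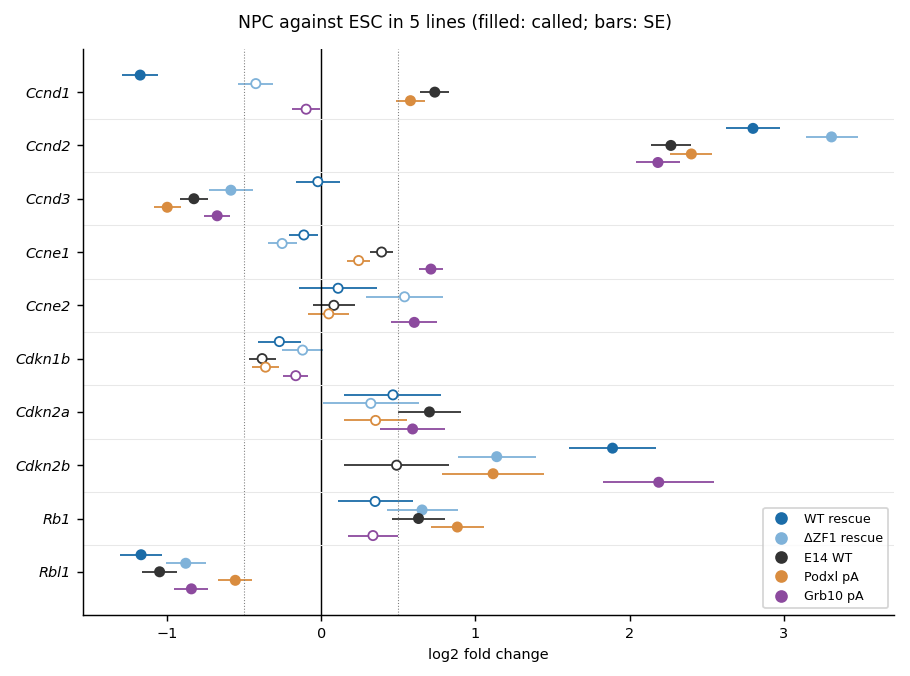
Log2 fold change of each gene in NPCs against ESCs of the same line (horizontal axis), 1 colour for each of the 5 lines, with bars of 1 SE and filled points for genes called. Ccnd2 lay far to the right in every line (2.18 to 3.31), level with Cdkn2b (2.19) in Grb10 pA. Ccnd1 lay on both sides of 0 (-1.17 to 0.74).

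Set on 1 scale per kilobase, the make-up of the D cyclin mRNAs differed between ESCs and NPCs of every line. Ccnd2 held 2.38% of the summed CPM per kb of the 3 genes in ESC-WT. In NPC-WT it held 18.8% ± 3.21 (SD over 2 libraries). It held 2.68% in ESC-ΔZF1 and 28.0% in NPC-ΔZF1. In E14 WT its share went from 3.97% to 17.2%, in Podxl pA from 2.96% to 15.4% and in Grb10 pA from 2.04% to 11.6%. Ccnd1 held 47.5% of the sum in ESC-WT and 24.5% in NPC-WT, but 33.2% in E14 WT ESCs and 50.6% in E14 WT NPCs. Ccnd3 held the largest share of the 3 in all 5 ESC groups, from 50.2% to 65.3%. Among the NPC groups Ccnd3 led in NPC-WT (56.8%), NPC-ΔZF1 (38.3%) and Grb10 pA (50.7%), and Ccnd1 led in E14 WT and Podxl pA (55.9%). The sum itself lay between 45.0 and 59.5 CPM per kb in the 10 group means.

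**Figure D3:**
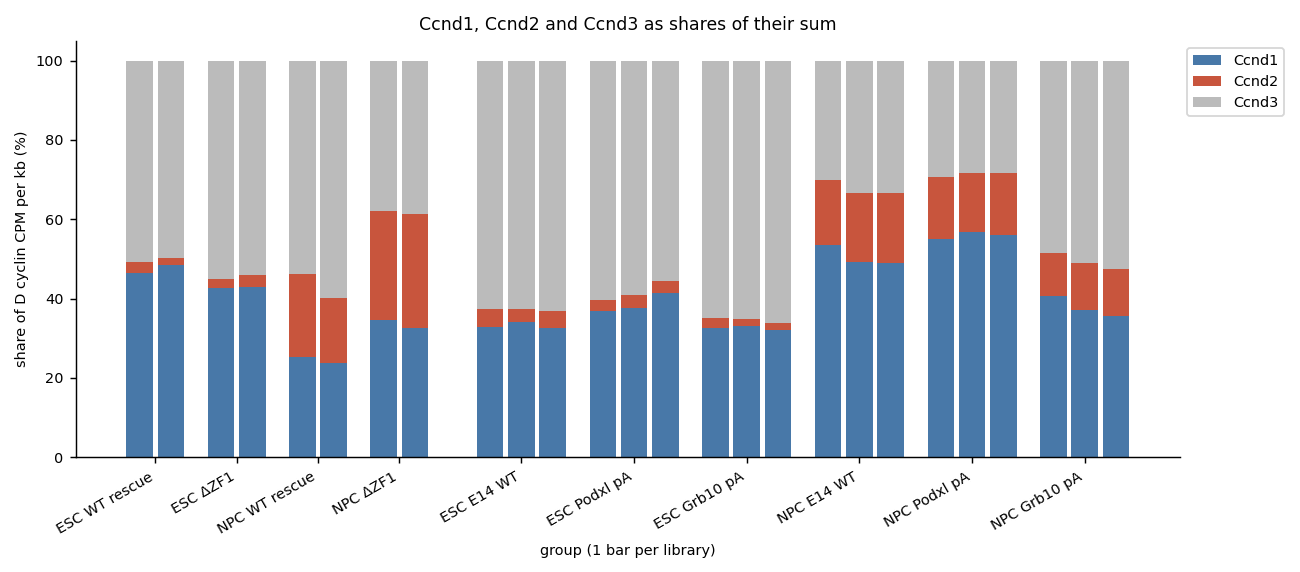
Shares of Ccnd1, Ccnd2 and Ccnd3 in their summed CPM per kb (vertical axis, percent), with 1 stacked bar for each library, by group. The Ccnd2 share was 2.04% to 3.97% in ESC group means and 11.6% to 28.0% in NPC group means.

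The E cyclins moved less. Ccne1 (chr7:38097984-38107534, minus strand), the more abundant of the pair, was 183 to 198 CPM in the 3 E14 WT ESC libraries and 247 to 254 in the NPC libraries, a log2 fold change of 0.39 ± 0.08 that passed the p cutoff (adjusted p = 0.000115) but not the fold cutoff. It was called in Grb10 pA, from 143, 134 and 163 CPM in ESCs to 242, 244 and 236 in NPCs (0.71 ± 0.08, 1.64-fold, adjusted p = 1.2e-08). In the rescue lines it was -0.11 (WT, adjusted p = 0.351) and -0.25 (ΔZF1, adjusted p = 0.0513). Ccne2 (chr4:11191351-11204779, plus strand) was likewise called in Grb10 pA, from 16.2, 12.8 and 20.6 CPM to 23.9, 26.9 and 26.5 (0.60 ± 0.15, 1.52-fold, adjusted p = 0.00151), with no overlap. Without Grb10 pA ESC replicate 2 the Ccne2 difference was 0.49 and under the fold cutoff. In the other 3 lines with agreeing replicates its log2 fold changes were 0.05 (Podxl pA), 0.08 (E14 WT) and 0.54 (ΔZF1, adjusted p = 0.105). In NPC-WT its 2 libraries gave 51.4 and 26.1 CPM beside 36.1 and 36.7 in ESC-WT. Ints8, on the opposite strand and named after its values were seen, shares 17.4% of the exon bases of Ccne2, and its log2 fold change was 0.23 in the Grb10 pA comparison and -0.67 in WT rescue. Without NPC-WT replicate 2 the log2 fold change of Ccne2 was 0.51 and called, and without replicate 1 it was -0.47 (adjusted p = 0.000713), just under the fold cutoff.

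Of the inhibitors, Cdkn1b (chr6:134920401-134925513, plus strand) was called in none of the 5 lines, with log2 fold changes from -0.38 to -0.12. In E14 WT it was 120, 105 and 108 CPM in ESCs and 81.9, 83.4 and 91.0 in NPCs, without overlap (-0.38 ± 0.09, adjusted p = 0.000747), which is under the fold cutoff. Cdkn2b (chr4:89306299-89311039, minus strand) was the least abundant of the inhibitors and rested on 3 to 168 counts per library. It rose 3.70-fold in the WT rescue line, from 1.83 and 2.09 CPM to 6.53 and 8.51 (1.89 ± 0.28, adjusted p = 0.000415). It rose 4.56-fold in Grb10 pA, from 0.649, 1.38 and 2.37 CPM to 5.85, 5.73 and 8.55 (2.19 ± 0.36, adjusted p = 1.3e-05). The groups did not overlap in either line. It also rose in Podxl pA (1.11 ± 0.33, 2.17-fold) and in ΔZF1 (1.14 ± 0.25, 2.20-fold), the latter not called without ESC-ΔZF1 replicate 2 (0.80, adjusted p = 0.069). In E14 WT the libraries overlapped, at 4.14, 2.91 and 1.55 CPM in ESCs and 4.21, 5.04 and 3.03 in NPCs (0.49 ± 0.34, adjusted p = 0.249).

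Cdkn2a (chr4:89274471-89294653, minus strand) rose in E14 WT, from 20.9, 23.3 and 20.2 CPM to 39.2, 38.7 and 26.6 (0.70 ± 0.21, 1.63-fold, adjusted p = 0.00645). In Grb10 pA it was called (0.59 ± 0.21, adjusted p = 0.0215) although the groups overlapped, at 11.5, 31.4 and 16.3 CPM in ESCs and 29.6, 26.4 and 28.2 in NPCs. That call was lost without Grb10 pA ESC replicate 1 (0.30) or 3 (0.49), or without Grb10 pA NPC replicate 1 (0.56, adjusted p = 0.0603). It was not called in Podxl pA (0.35), in ΔZF1 (0.32) or in WT rescue, where the NPC-WT libraries held 16.3 and 33.0 CPM. The WT rescue value of 0.46 ± 0.31 turned to 0.87 and was called without NPC-WT replicate 1, and was -0.14 without replicate 2. The count of this gene joins transcripts from 2 promoters, those of p19ARF and p16, and the 2 cannot be split here. The 250 bases before each RefSeq start (GRCm38.p6, minus strand) are shown because they differ in the E2F letters searched, TTTCGCGC, TTTGGCGC, TTTCCCGC and TTTGCCGC on either strand, with a match in capitals. Promoter 1 (chr4:89294620-89294869) had a match 99 bases before the start and promoter 2 (chr4:89282193-89282442) had none.
Cdkn2a promoter 1: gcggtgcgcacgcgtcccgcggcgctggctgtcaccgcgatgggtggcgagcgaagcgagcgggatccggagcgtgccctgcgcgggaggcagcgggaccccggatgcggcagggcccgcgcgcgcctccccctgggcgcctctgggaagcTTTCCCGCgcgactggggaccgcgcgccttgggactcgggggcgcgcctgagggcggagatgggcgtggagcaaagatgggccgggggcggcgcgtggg
Cdkn2a promoter 2: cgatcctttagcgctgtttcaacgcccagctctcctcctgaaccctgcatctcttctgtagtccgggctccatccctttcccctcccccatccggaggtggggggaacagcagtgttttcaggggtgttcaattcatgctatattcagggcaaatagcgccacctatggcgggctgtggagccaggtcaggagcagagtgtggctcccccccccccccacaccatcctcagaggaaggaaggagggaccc

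In the Rb family, Rbl1 (p107, chr2:157145893-157204534, minus strand) fell in all 5 lines and its groups overlapped in none. It was 45.1 and 42.0 CPM in ESC-WT against 20.9 and 17.5 in NPC-WT (-1.17 ± 0.14, 2.25-fold lower, adjusted p = 8.41e-05), and 69.1, 66.6 and 63.3 in E14 WT ESCs against 31.7, 31.0 and 34.4 in NPCs (-1.05 ± 0.11, 2.07-fold lower, adjusted p = 1.91e-08). The fall was 1.84-fold in ΔZF1, 1.79-fold in Grb10 pA and 1.47-fold in Podxl pA (-0.56 ± 0.11). In Podxl pA it was under the fold cutoff without ESC replicate 3 (-0.46). Rb1 (chr14:73183673-73325822, minus strand) rose in E14 WT, from 12.4, 12.7 and 9.71 CPM to 18.8, 17.9 and 18.9 (0.63 ± 0.17, 1.55-fold, adjusted p = 0.00411), and in Podxl pA (0.88 ± 0.17, 1.84-fold). In ΔZF1 it rose from 14.5 and 15.1 CPM to 23.0 and 23.6 (0.65 ± 0.23, adjusted p = 0.0424), a call lost when any 1 of these 4 libraries was left out (0.62 to 0.67, adjusted p 0.128 to 0.187). In NPC-WT it was 23.1 and 13.0 CPM beside 16.2 and 13.0 in ESC-WT (0.35 ± 0.24, adjusted p = 0.261), and the difference was 0.72 and called without NPC-WT replicate 2 and -0.12 and not called without replicate 1. Rcbtb2 and Lpar6 overlap 14.9% of the exon bases of Rb1 on the opposite strand. In ΔZF1, E14 WT and Podxl pA, where Rb1 was called, Rcbtb2 was 2.54, 2.76 and 2.23 higher on the log2 scale and Lpar6 2.45, 2.77 and 3.46 higher. In WT rescue and Grb10 pA, where Rb1 was not called, Rcbtb2 was 2.17 and 2.69 higher and Lpar6 1.48 and 3.46 higher. Their part in the Rb1 counts was not tested.

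Rbl1 is itself a known E2F target. The 250 bases before its RefSeq start (GRCm38.p6, chr2:157204535-157204784, minus strand) are shown for their match to the same E2F letters, in capitals, 18 bases before the start.
Rbl1 promoter: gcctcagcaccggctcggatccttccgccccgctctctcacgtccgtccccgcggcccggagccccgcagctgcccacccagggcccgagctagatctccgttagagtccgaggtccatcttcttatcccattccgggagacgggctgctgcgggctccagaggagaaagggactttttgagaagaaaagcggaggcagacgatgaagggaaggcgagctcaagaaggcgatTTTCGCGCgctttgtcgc
RefSeq promoters of 300 bases (250 before to 50 after the start) were given for 6 of the 10 genes, 8 in all: Ccnd3 and Cdkn2a with 2 each, and Ccne1, Cdkn1b, Cdkn2b and Rbl1. The E2F letters were found in 2 of the 8, those of Rbl1 and the first of Cdkn2a, and in 2.26% of 32851 promoters. The E-box CACGTG was in none of the 8 and in 7.15% of all, both strands searched. A match is a string of letters, not a measured site.

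The ΔZF1 and WT rescue lines were compared at each stage. With 1 clone for each transgene, the deletion and other differences between the clones cannot be told apart. An effect of ΔZF1 here means the difference between these lines. In ESCs none of the 10 genes was called between ESC-ΔZF1 and ESC-WT by edgeR, where 3.61% of genes were called, 0 had an unadjusted p under 0.05, and DESeq2 called 0. The log2 fold changes ran from -0.49 (Cdkn2a) to 0.37 (Cdkn2b). Cdkn2a was 13.6 and 20.7 CPM in ESC-WT and 14.3 and 10.7 in ESC-ΔZF1.

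In NPCs, 3 of the 10 were called higher in NPC-ΔZF1 than in NPC-WT, beside 17.6% of all genes in either direction and 7.19% higher. They were 2 D cyclins and Rbl1. Ccnd1 was 51.4 and 60.8 CPM in NPC-WT and 93.3 and 85.5 in NPC-ΔZF1 (0.68 ± 0.11, 1.60-fold, adjusted p = 0.00324). Ccnd2 was 85.6 and 84.6 against 148 and 150 CPM (0.81 ± 0.15, 1.75-fold, adjusted p = 0.00518). Rbl1 was 20.9 and 17.5 against 26.5 and 28.2 CPM (0.50 ± 0.13, 1.41-fold, adjusted p = 0.026), right at the fold cutoff. The libraries of the 2 groups overlapped for none of these 3 genes. Without NPC-WT replicate 2, Ccnd1 and Ccnd2 were each 0.78 higher and still called, and Rbl1 was 0.37 higher and not called. Leaving out a mutant library ended 5 of 6 calls, Ccnd1 without NPC-ΔZF1 replicate 2 being the exception. Without NPC-ΔZF1 replicate 1, Ccnd1 was 0.60 (adjusted p = 0.0581), Ccnd2 0.81 (0.0541) and Rbl1 0.54 (0.126), and without replicate 2, Ccnd2 was 0.80 (0.0563) and Rbl1 0.46 (0.194).

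The other 7 genes were not called, and in Ccnd3, Ccne2, Cdkn2a and Rb1 the 2 NPC-WT libraries stood far apart. Ccne2 was 51.4 and 26.1 CPM in NPC-WT and 55.7 and 48.7 in NPC-ΔZF1, Rb1 23.1 and 13.0 against 23.0 and 23.6, and Cdkn2a 16.3 and 33.0 against 16.4 and 14.8. In each of these, NPC-WT replicate 1 lay near the mutant and replicate 2 apart. Ints8, which overlaps Ccne2, was 0.47 higher in NPC-ΔZF1 (adjusted p = 0.041). Ccnd3 was 204 and 286 CPM in NPC-WT and 191 and 188 in NPC-ΔZF1 (-0.37 ± 0.14, adjusted p = 0.0946). Cdkn1b was 40.4 and 32.1 against 46.5 and 48.0 CPM (0.37 ± 0.13, adjusted p = 0.076). Without NPC-WT replicate 2 the differences were 0.01 for Ccne2, -0.08 for Cdkn2a, -0.12 for Ccnd3 and -0.00 for Rb1. Without NPC-WT replicate 1, 9 of the 10 genes were called, Ccne1 being the exception, with Ccne2 at 1.00, Rb1 at 0.84, Cdkn1b at 0.55, Ccnd3 at -0.60, Cdkn2b at -0.58 and Cdkn2a at -1.08. The number of genes called over the whole table was then 5870 instead of 2936. Of the extraembryonic endoderm genes given above, 10 of 10 were called higher in NPC-ΔZF1 than in NPC-WT (median log2 fold change 2.81). Ccnd1 and Ccnd2 were higher in the same comparison, and Ccnd3 was not called (-0.37). In Podxl pA NPCs 5 of these endoderm genes were called higher than in E14 WT (median 0.64), where no D cyclin was called. Their part in the values of the D cyclins was not tested.

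**Figure D4:**
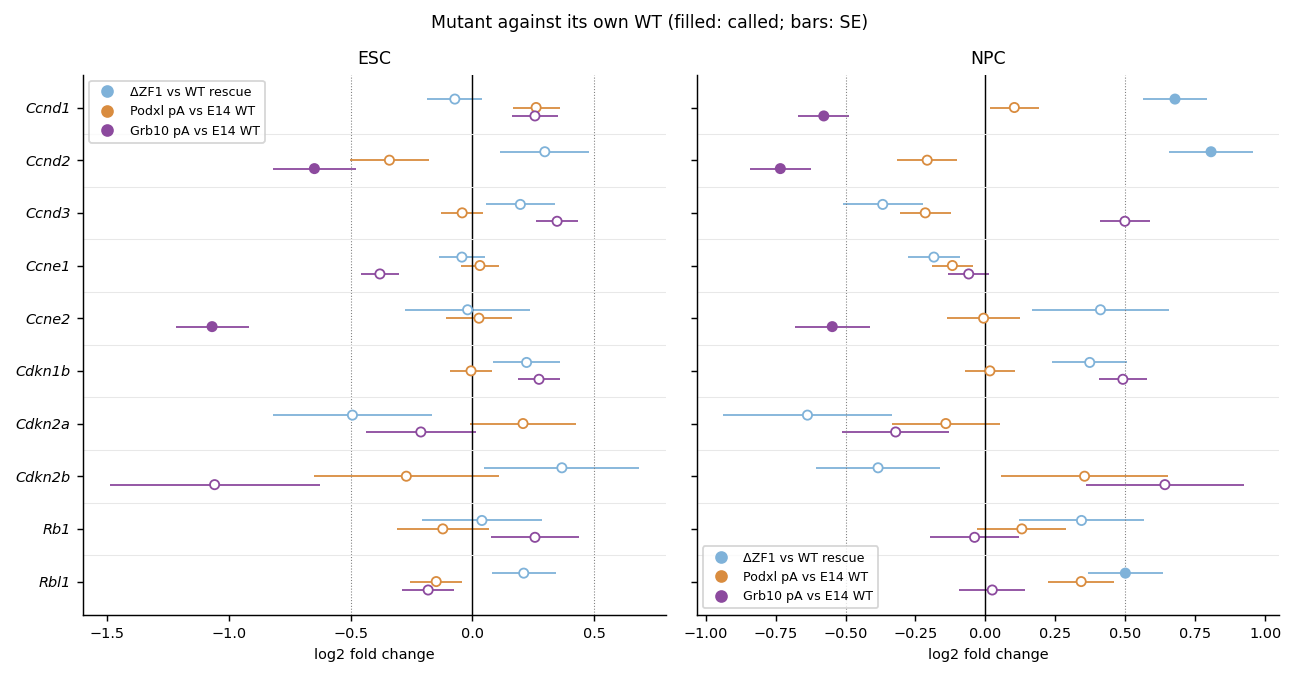
Log2 fold change of each gene in mutant against WT cells (horizontal axes), with 1 panel for ESCs and 1 for NPCs. The mutants have separate colours, with bars of 1 SE and filled points for genes called. In NPC-ΔZF1 Ccnd1 (0.68) and Ccnd2 (0.81) were to the right, and in Grb10 pA NPCs the same pair was to the left (-0.58 and -0.73).

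The effect of ΔZF1 differed between NPCs and ESCs, as a contrast of the 4 groups, for 1 of the 10 genes, where 2.70% of genes were called. That was Ccnd1, at -0.07 in ESCs and 0.68 in NPCs (difference 0.75 ± 0.16, adjusted p = 0.0389). Leaving out either library of ESC-WT, ESC-ΔZF1 or NPC-ΔZF1 ended this call, with differences of 0.68 to 0.81. The difference for Ccnd2 was 0.51 ± 0.24 (adjusted p = 0.288) and for Ccnd3 -0.56 ± 0.20 (adjusted p = 0.178). Without NPC-WT replicate 1 it was -0.79 for Ccnd3, 1.02 for Ccne2, 0.78 for Rb1, -0.94 for Cdkn2b and -0.54 for Cdkn2a, and these 5 were called.

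In Podxl pA cells none of the 10 genes was called by edgeR or DESeq2 against E14 WT, in ESCs (0.339% of genes called), in NPCs (0.550%) or in the difference between them (0.0980%). An unadjusted p under 0.05 was reached by 2 genes in ESCs, 2 in NPCs and 1 in the difference. Rbl1 was 44.5, 39.0 and 39.5 CPM in Podxl pA NPCs and 31.7, 31.0 and 34.4 in E14 WT NPCs, without overlap (0.34 ± 0.12, adjusted p = 0.246). Ccnd3 was 119, 126 and 120 CPM against 130, 150 and 143 in the same NPCs, again without overlap (-0.22 ± 0.09, adjusted p = 0.393). In ESCs, Ccnd1 was 80.3, 80.8 and 99.9 CPM against 74.6, 69.5 and 69.5 (0.26 ± 0.10, adjusted p = 0.372) and Ccnd2 12.7, 13.6 and 13.4 against 19.8, 13.5 and 17.9 (-0.34 ± 0.16, adjusted p = 0.536).

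Grb10 pA ESCs, set against the same E14 WT libraries as Podxl pA, had 2 of the 10 genes called, beside 9.09% of all genes in either direction and 4.58% lower. Here 2 of 4 tested neuron markers, 1 of 6 neural progenitor and 1 of 9 pluripotency markers were called lower. Of 10 extraembryonic endoderm markers 1 was called higher, and the part of these markers was not tested. In Grb10 pA ESC replicate 2 the 10 highest genes held 15.5% of counts, against 8.63% and 8.97% in replicates 1 and 3. Ccne2 fell 2.10-fold, from 29.4, 37.5 and 40.0 CPM to 16.2, 12.8 and 20.6 (-1.07 ± 0.15, adjusted p = 1.29e-05), with no overlap. Its neighbour Ints8 was at -0.11 in these ESCs and 0.10 in Grb10 pA NPCs, and was called in neither. Ccnd2 fell 1.57-fold, from 19.8, 13.5 and 17.9 CPM to 12.3, 9.67 and 9.71, also without overlap (-0.65 ± 0.17, adjusted p = 0.0101). The Ccnd2 call was lost without E14 WT ESC replicate 1 (-0.49, adjusted p = 0.0878) or Grb10 pA ESC replicate 3 (-0.58, adjusted p = 0.0517). Ccne1 was 143, 134 and 163 CPM against 183, 193 and 198 in E14 WT (-0.38 ± 0.08, adjusted p = 0.00105), Ccnd3 was 0.35 higher and Cdkn1b 0.27 higher, all past the p cutoff and under the fold cutoff. Cdkn2b stood at -1.06 ± 0.43 (adjusted p = 0.0997) and reached -1.68 and a call without Grb10 pA ESC replicate 3. Cdkn2a, with Grb10 pA ESC libraries at 11.5, 31.4 and 16.3 CPM, went from -0.21 to -0.66 and a call without replicate 2.

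In Grb10 pA NPCs 3 of the 10 were called lower, beside 16.5% of genes in either direction and 8.64% lower. Ccnd1 was 125, 119 and 113 CPM in E14 WT and 78.5, 85.7 and 75.2 in Grb10 pA (-0.58 ± 0.09, 1.49-fold lower, adjusted p = 2.73e-05). Ccnd2 was 76.7, 84.7 and 80.6 against 42.5, 54.6 and 50.4 CPM (-0.73 ± 0.11, 1.66-fold lower, adjusted p = 1.59e-05). Ccne2 was 36.6, 36.1 and 40.1 against 23.9, 26.9 and 26.5 CPM (-0.55 ± 0.13, 1.46-fold lower, adjusted p = 0.00308), and without Grb10 pA NPC replicate 1 it was -0.48 and under the fold cutoff. No library of either group lay within the range of the other for these 3 genes. Ccnd3 and Cdkn1b went the other way by just under the fold cutoff. Ccnd3 was 130, 150 and 143 CPM in E14 WT and 175, 219 and 207 in Grb10 pA (0.498 ± 0.09, adjusted p = 0.000126), and was called at 0.50 to 0.59 without E14 WT NPC replicate 2 or 3 or Grb10 pA NPC replicate 1. Cdkn1b was 81.9, 83.4 and 91.0 against 132, 114 and 112 CPM (0.49 ± 0.09, adjusted p = 0.000103), and was called at 0.52 to 0.54 without E14 WT NPC replicate 3 or Grb10 pA NPC replicate 2 or 3. The neural progenitor markers given above differed between the same groups, and 5 of 9 pluripotency markers were higher and 1 lower in Grb10 pA NPCs. The part of these markers in the differences was not tested.

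The Grb10 pA effect differed between NPCs and ESCs for 2 of the 10 genes, where 5.90% of genes were called. For Ccnd1 it was 0.26 in ESCs and -0.58 in NPCs (difference -0.83 ± 0.13, adjusted p = 0.000277). For Cdkn2b it was -1.06 in ESCs and 0.64 in NPCs (difference 1.70 ± 0.52, adjusted p = 0.0445), and this call was lost on leaving out any 1 of 9 of the 12 libraries, with differences of 1.28 to 1.94. Ccne2 gave 0.52 (adjusted p = 0.119), or 0.71 and a call without Grb10 pA ESC replicate 3. In NPC-ΔZF1, chromosome 11, and in Grb10 pA cells, chromosome 8 had a lowered median log2 fold change over its genes (-0.57, and -0.49 in ESCs and -0.48 in NPCs), and none of the 10 genes lies on either chromosome.

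The other genes of the pathway were described by lists. Of 22 S-phase genes under E2F, 11 fell from ESC to NPC in WT rescue and none rose (median log2 fold change -0.50, beside 0.01 over all genes tested), where 19.9% of all genes were called lower and 41.9% in either direction. In ΔZF1, 7 fell (-0.41), beside 16.9% of genes lower and 37.3% in either direction. In E14 WT none was called by edgeR or DESeq2, with 6 at an unadjusted p under 0.05 (-0.04), in Podxl pA 1 fell (-0.19), and in Grb10 pA 1 rose and 2 fell (-0.02). The genes that fell most in WT rescue were Gins1 (-1.13), Pola1 (-0.93), a subunit of the replicative primase complex, and Tk1 (-0.85), thymidine kinase. Of 20 G2 and mitosis genes, 3 rose and 1 fell in WT rescue, with Foxm1 (0.93), Mki67 (0.87) and Cdc20 (0.63) the largest. In Grb10 pA 5 rose and 1 fell (0.28), with Cdc20 and Plk1 at 0.87 each. In ΔZF1, 2 rose (Mki67, 0.76, and Kif23, 0.72), and in E14 WT and Podxl pA 1 rose, Cdc20 (0.78 and 0.63). Of all genes, 32.8% were called in E14 WT, 31.8% in Podxl pA and 34.6% in Grb10 pA, beside the shares given above for the rescue lines.

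**Figure D5:**
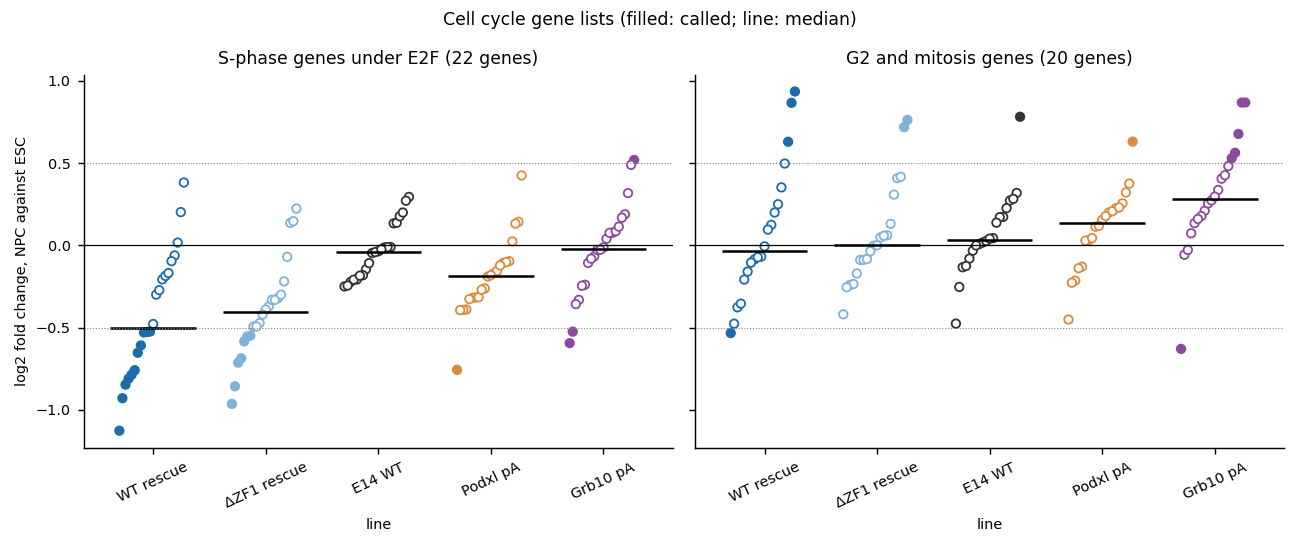
Log2 fold change of each gene in NPCs against ESCs (vertical axes) for the S-phase list and the G2 and mitosis list, by line, with filled points for genes called and a bar at the median of each list. The S-phase median was -0.50 in WT rescue and -0.41 in ΔZF1 and between -0.19 and -0.02 in the other 3 lines.

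Among 7 CDKs and other CDK inhibitors, Cdkn1c (p57) rose from ESC to NPC in all 5 lines (2.06 in WT rescue, 3.27 in ΔZF1, 3.95 in E14 WT, 4.16 in Podxl pA and 3.31 in Grb10 pA), and Cdk6, a partner of the D cyclins, fell in all 5 (-1.10, -0.89, -0.68, -0.81 and -0.95 in the same order). Cdkn1c started from 0.373 to 4.01 CPM in ESCs and reached at most 24.1 in NPCs. Cdkn1a (p21) fell in the 3 lines of the truncation experiment (-1.90, -1.70 and -1.89) and was not called in the rescue lines. Of the list as a whole, 2 rose and 1 fell in WT rescue, 1 and 1 in ΔZF1, 1 and 2 in E14 WT, and 1 and 3 in both Podxl pA and Grb10 pA. In the same order of lines, 41.9%, 37.3%, 32.8%, 31.8% and 34.6% of all genes were called.

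Of 11 E2F, DP and p130 genes, 2 rose and 2 fell in WT rescue, 2 and 3 in ΔZF1, 2 and 2 in E14 WT, 1 and 0 in Podxl pA and 2 and 2 in Grb10 pA, where 41.9%, 37.3%, 32.8%, 31.8% and 34.6% of all genes were called. E2f7, which encodes an atypical repressive E2F, rose in every line (1.39, 0.80, 0.87, 0.81 and 0.72). Rbl2 (p130), the relative of Rbl1, fell in WT rescue (-0.52), ΔZF1 (-0.82), E14 WT (-0.88) and Grb10 pA (-0.89). Of 6 MuvB and B-Myb genes none rose, and 1, 2, 3, 3 and 2 fell in the same order of lines, with Mybl2 at -0.76 in ΔZF1, -0.68 in E14 WT, -0.90 in Podxl pA and -0.67 in Grb10 pA. Of 13 regulators of cyclin E and p27 turnover and CDK2 activity, 1 rose and 4 fell in WT rescue, 1 rose in ΔZF1, 4 in E14 WT, 1 in Podxl pA and 4 in Grb10 pA. Cks1b, the cofactor by which SCF-Skp2 recognizes p27, rose in the truncation lines (0.73, 0.65 and 0.93), and Skp2 in E14 WT (0.67) and Grb10 pA (0.52). The WT rescue value of Rbl2 and the Grb10 pA value of Skp2 fall outside the rule for named genes and were added after they were seen. Of 4 genes of the Myc family and its partner, 1, 3, 2, 2 and 2 rose, and Myc rose in all 5 lines (1.81, 1.16, 2.76, 3.12 and 3.91).

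Between ESC-ΔZF1 and ESC-WT, 2 of the 83 listed genes were called, beside 3.61% of all genes. Skp1a (-0.64) and Cdc6 (-0.53) were lower, and both lie on chromosome 11, whose genes had a median of -0.46. In NPC-ΔZF1 9 of the 83 were called, beside 17.6% of all genes. The inhibitor Cdkn1c (0.61, adjusted p = 0.047), Cks1b (0.72), Rbx1 (0.66) and Mycn (0.95, from 49.7 to 95.6 CPM) were higher, and E2f7 (-0.52), Lin37 (-0.84), Cdt1 (-0.67), Cdc6 (-0.51) and Aurkb (-0.55) were lower. Cdc6 and Aurkb lie on chromosome 11. In Podxl pA none of the listed genes was called in either state by edgeR or DESeq2, with 9 in ESCs and 9 in NPCs at an unadjusted p under 0.05 over the 7 lists.

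In Grb10 pA, 6 of the 83 listed genes were called in ESCs and 6 in NPCs, beside 9.09% and 16.5% of all genes. Among those in ESCs, Cdkn2d was higher (0.53), and Tfdp1 (-0.79), E2f4 (-0.76), E2f8 (-0.69) and Myc (-1.42) were lower. Of the 11 E2F, DP and p130 genes, 3 were called lower in these ESCs and 1, outside the rule for named genes, higher. In Grb10 pA NPCs Tfdp1 (-1.06), E2f3 (-0.58), E2f7 (-0.55), E2f4 (-0.54, outside the rule for named genes and added after its value was seen) and Cdk6 (-0.77) were lower and Cdc25c was higher (0.54). Tfdp1 and E2f4 lie on chromosome 8. In neither state was any of the 22 S-phase genes called by edgeR or DESeq2, with 6 in ESCs and 11 in NPCs at an unadjusted p under 0.05, and 3 and 8 past the adjusted p but under the fold cutoff. Of the 20 G2 and mitosis genes, 12 passed the adjusted p in Grb10 pA NPCs, 1 of them past the fold cutoff, with a median of 0.26 beside 0.01 over all genes tested. Of all 13268 genes tested, 2016 passed the adjusted p in Grb10 pA ESCs and 3727 in Grb10 pA NPCs.

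The genes most alike in pattern were sought for the 3 members with the widest range of group means in the rescue experiment, Ccnd2, Cdkn2b and Rbl1 (3.57, 1.87 and 1.39 on the log2 CPM scale). Likeness was Pearson's r over the 26 libraries on log2 CPM centred within each experiment, for 13225 genes, and the libraries share cell state and depth. Nearest to Ccnd2 were Wnt8a (r = 0.986), Zfp608 (0.981) and Hoxb1 (0.979). Nearest to Rbl1 were Arl15 (0.964), Zfp292 (0.964) and Klf5 (0.963), and nearest to Cdkn2b were Phlda1 (0.896), Irf2bp2 (0.895) and Jun (0.893). Among the 10 genes themselves the strongest relations were Ccnd2 with Rbl1 (-0.84), with Cdkn2b (0.79) and with Ccnd3 (-0.79), Cdkn2b with Rbl1 (-0.78) and Ccnd2 with Rb1 (0.76), all over the same 26 libraries.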

How the data were processed

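RNA was depleted of rRNA and sequenced from a directional kit. The authors used the sns pipeline, with STAR (defaults) for alignment to mm10 and featureCounts for unstranded counting, and deposited raw counts per gene. Versions and the gene annotation are not given in the sources used here. The 26 libraries were grouped by their labels, and 3 columns of per-sample values that match no sample were not used. The authors tested with DESeq2.

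Each table was fitted by itself with edgeR 4.0.16 in R 4.3.3 (TMM, filterByExpr, a mean for each group, quasi-likelihood F test, Benjamini-Hochberg over all genes tested), on 16641 genes in the 8 rescue libraries and 13268 in the 18 truncation libraries. The cutoffs of the study (adjusted p 0.05, log2 fold change 0.5) were used for calls. Each SE was the log2 fold change over the square root of F. The difference between 2 effects is a contrast of 4 group means. CPM use TMM library sizes, log2 CPM a prior count of 2, and lengths the union of GENCODE M21 exons. Scripts were tested on simulated data. Depth was 6425179 to 28730435 and 1907505 to 8845087 counts per library, which limits Cdkn2b most.

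Named genes were the 10 members, up to 3 called genes with the largest change in each of 7 pathway lists and comparison, the targeted genes, and 3 genes most like each of 3 members. The members and lists were chosen with earlier results of these data known. Alternatives were DESeq2 1.42.0, RLE factors, other filters and cutoffs, the compared groups alone, no genes of chromosome 11 or 8, a replicate term, and each library left out. Members and lists are described by counts, with no test over a list.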

Additional observations from a re-analysis of the deposited data

Results flagged for a closer look

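A difference between NPCs and ESCs in the effect of a mutant was found by the contrast of 4 group means (edgeR, adjusted over all genes) for 3 values of the 10 genes. For Ccnd1 the NPC effect minus the ESC effect was 0.75 on the log2 scale for ΔZF1 and -0.83 for Grb10 pA, and for Cdkn2b it was 1.70 for Grb10 pA. Among the 83 listed genes of the pathway, 2 passed the same contrast for ΔZF1, beside 2.70% of all genes. They were Cks1b (0.84) and Mycn (0.98). For Grb10 pA 5 of the 83 passed, beside 5.90% of all genes. These were E2f6 (-0.52, not called by DESeq2), Plk1 (0.69), Nusap1 (0.68), Mki67 (0.65) and Myc (1.14).

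A pair of genes had all NPC libraries on one side of the ESC libraries in the rescue lines and on the other in truncation lines. Ccnd1 was at -1.17 in WT rescue and -0.42 in ΔZF1, and at 0.74 in E14 WT and 0.58 in Podxl pA. Ccne1 was at -0.11 and -0.25 in the rescue lines, and at 0.39, 0.24 and 0.71 in E14 WT, Podxl pA and Grb10 pA. The difference between experiments was not tested, since the tables were normalized separately. Groups of 2 or 3 libraries are too small to test for a library far from the others.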

How the results depend on the processing

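Over the alternatives, 2146 values of the 10 genes were recomputed. Of these, 2052 kept their side of the cutoffs, 52 lost a call and 42 gained one. No called value changed sign. Among the 2052, 50 values that were not called did change sign. Of 39 calls, 26 held under every alternative run. The number of the 10 genes called stayed within 1.5 times for NPC against ESC in WT rescue (4; 4 to 6 with a library left out), E14 WT (6; 6), Podxl pA (6; 5 to 6) and Grb10 pA (7; 6 to 7), and at 0 for the Podxl pA effects. In ΔZF1 it was 5, and 3 to 4 with a library left out.

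For NPC-ΔZF1 against NPC-WT it was 3, but 1 with only these groups in the fit and 0 to 9 with a library left out. It was 0 for ESC-ΔZF1 and 1 (Cdkn2a, -0.52) with only the groups compared. For the ΔZF1 effect in NPCs minus ESCs it was 1, then 0 at an adjusted p of 0.01, 2 with no filter, and 0 to 6 with a library left out. Grb10 pA ESCs gave 2, then 1 at an adjusted p of 0.01, 1 with only the groups compared, 5 with no limit on the fold change, and 1 to 3 with a library left out. Grb10 pA NPCs gave 3, then 5 with no filter or no fold limit, and 3 to 5 with a library left out. The Grb10 pA effect in NPCs minus ESCs gave 2, then 1 at an adjusted p of 0.01, with at least 10 counts in every library (where Cdkn2b was not tested), with DESeq2 (which gave Cdkn2b no adjusted p) and with only the groups compared, and 1 to 3 with a library left out. The cause was not tested, except where fewer libraries or genes were in the fit.

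With the replicate number as a block, the ΔZF1 effect contrast called 0 and the Grb10 pA effect contrast 1 of the 10 genes, and no other count of the 10 genes moved beyond 1.5 times. Deviations of same-numbered libraries correlated at -0.137 to 0.132 over 12 pairs in the rescue experiment and -0.209 to 0.154 over 45 in the truncation experiment. Of the libraries, 6 of 8 and 7 of 18 correlated best with their own number. With 2 libraries in a rescue group their deviations mirror each other, so that both replicate numbers give the same correlations. These values cannot settle whether the numbers pair the libraries.

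Rbl1 in NPC-ΔZF1 was called under 6 of 13 alternatives (0.37 to 0.64). Counts over all genes moved more: for ESC-ΔZF1 from 601 to between 8 and 1601, for NPC-ΔZF1 from 2936 to between 943 and 5870, and for the ΔZF1 contrast from 449 to between 54 and 4673, with the share higher going from 58.8% to 48.2% under DESeq2, 47.2% with no filter and as high as 92.1% without ESC-WT replicate 2. For Podxl pA they went from 45 to between 12 and 94 in ESCs, from 73 to between 40 and 133 in NPCs, and from 13 to between 6 and 108 for the contrast. For Grb10 pA they went from 1206 to between 784 and 2016, from 2195 to between 1562 and 3727, and from 783 to between 314 and 943. For NPC against ESC they lay between 5038 and 8109 in WT rescue (6980), 4500 and 7246 in ΔZF1 (6208), 2683 and 6197 in E14 WT (4351), 2533 and 6150 in Podxl pA (4224) and 2860 and 6581 in Grb10 pA (4590). RLE in place of TMM shifted the median by -0.0217 to 0.0232.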
